A study of Mus musculus with 6 samples.

Results

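The hedgehog pathway was followed through 9 of its core genes in the lip transcriptome of Gtf2ird1 knockout (KO) and wild type (WT) mice. The genes were taken by name, at a time when earlier results of these data were known. They were the ligand genes Shh and Ihh, the receptor genes Ptch1 and Smo, and the inhibitor genes Hhip and Sufu. The transcription factor genes Gli1, Gli2 and Gli3 completed the set. All 9 were among the 26814 genes of the count file, and 8 of them were expressed highly enough to be tested. The samples were whole top lips of adult female mice on a C57BL/6J background, 3 of them WT and 3 KO mice with the Gtf2ird1-tm1Hrd mutation, with 1 RNA-Seq library per mouse. No treatment is named for either genotype. The mutation is inherited and not limited to the lip, and the samples hold all cell types of the dissected tissue.

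Hedgehog ligands are secreted proteins that bind the receptor Patched. In the absence of ligand, Patched holds back the membrane protein Smoothened, and the Gli proteins are processed into repressors with the help of Sufu. Ligand binding frees Smoothened, which acts at the primary cilium and leaves Gli2 and Gli3 as activators. Gli1, Ptch1 and Hhip are classical target genes of the pathway, and their transcript levels are often used as its readout. In hair-bearing skin, Shh is made by the matrix cells at the base of the growing follicle and signals to neighbouring epithelium and to the dermal papilla and surrounding fibroblasts, whereas Ihh is known from the sebaceous gland and from cartilage.

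Since Gli proteins act at promoters and enhancers, the promoters of 3 members are shown here: Gli2, whose transcript differed between the genotypes, Gli3, its close relative whose transcript did not pass the test, and Ptch1, a classical Gli target. Each sequence is from RefSeq (GRCm38.p6), runs 5′ to 3′ along the gene's own strand and covers 250 bases before to 50 bases after the annotated start. The Gli2 window is chr1:119053570-119053869 on the minus strand, the Gli3 window chr13:15463473-15463772 on the plus strand and the Ptch1 window chr13:63565686-63565985 on the minus strand. The RefSeq start of Gli2 is the first base of the GENCODE gene, whereas those of Gli3 and Ptch1 lie 488 and 7863 bases downstream of it, so that their windows belong to internal starts and the upstream starts of Ptch1 are not shown. Capitals mark the letters ACCACCC or their reverse complement GGGTGGT, the inner part of the known Gli binding sequence GACCACCCA.
Gli2: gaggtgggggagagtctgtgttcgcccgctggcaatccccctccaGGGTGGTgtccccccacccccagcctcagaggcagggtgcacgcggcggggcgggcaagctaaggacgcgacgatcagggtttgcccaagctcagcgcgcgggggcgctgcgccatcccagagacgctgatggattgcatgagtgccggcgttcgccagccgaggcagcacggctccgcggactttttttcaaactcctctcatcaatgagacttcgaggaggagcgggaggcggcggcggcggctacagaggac
Gli3: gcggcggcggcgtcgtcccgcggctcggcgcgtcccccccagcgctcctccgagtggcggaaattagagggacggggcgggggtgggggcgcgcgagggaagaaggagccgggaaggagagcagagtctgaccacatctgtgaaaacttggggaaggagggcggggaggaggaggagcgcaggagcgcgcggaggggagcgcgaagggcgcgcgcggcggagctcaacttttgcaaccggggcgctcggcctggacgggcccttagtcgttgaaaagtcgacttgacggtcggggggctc
Ptch1: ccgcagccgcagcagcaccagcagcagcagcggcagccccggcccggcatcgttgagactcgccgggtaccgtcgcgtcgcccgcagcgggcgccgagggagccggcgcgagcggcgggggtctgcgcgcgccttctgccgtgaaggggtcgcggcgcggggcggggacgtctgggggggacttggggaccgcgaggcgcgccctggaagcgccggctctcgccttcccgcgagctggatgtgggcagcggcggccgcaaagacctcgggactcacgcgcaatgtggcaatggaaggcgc

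Of the 9 members, 7 had a promoter entry and Shh and Gli1 had none. The whole sequence GACCACCCA, or TGGGTGGTC on the other strand, was in 0 of the 7 windows and in 0.253% of all 32851 promoters of the same length. The shorter ACCACCC, which lies within it, was found on either strand in 4.61% of all promoters and in 1 of the 7, that of Gli2, where it began at position -205 relative to the start. The core CCACCC, which lies within both, was in 31.5% of all promoters and in the windows of Gli2, Gli3, Hhip, Ihh and Smo. These are matches of letters in a short window and not binding sites. Each of the 7 windows held more CpG dinucleotides than the median over all promoters, which was 7. The Ptch1 window held 47, that of Gli3 39, those of Ihh and Hhip 30 each and that of Gli2 28. The windows of Smo with 17 and Sufu with 12 lay below the upper quartile over all promoters, which was 20.

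The 6 libraries held between 20164081 and 29491767 counts, and 99.8% of the counts of each fell on the 15009 tested genes. A count of 3 corresponded to between 0.0986 and 0.154 CPM (the counts of a gene scaled to one common library total), which covers counting error only. CPM values here are relative to the counts in tested genes, after scaling by TMM. Gtf2ird1 itself had 70.2 to 78.2 CPM in the libraries labelled WT and 144 to 166 CPM in those labelled KO, a log2 fold change of 1.11 (SE 0.13, adjusted p = 0.0018, edgeR quasi-likelihood test). A count over the whole gene does not show which part of the transcript is present, so it does not check the allele, and the count of the targeted gene was higher and not lower in the libraries labelled KO. By the study's methods, genotypes set when the mice were young were checked again on tail biopsies. KO and WT stand for the labels throughout, and every direction below rests on them. KO replicate 3 stood apart from the other KO libraries. Its summed dermal fibroblast markers were at 7313 CPM, against 3094 and 3900 CPM in KO replicates 1 and 2 and 7016 to 9110 CPM in WT. Without it, 16.2% of the genes tested were called lower and 16.9% higher in KO, against 2.09% and 4.38% with all libraries.

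Transcripts of 3 of the 8 tested members, Shh, Gli1 and Gli2, fell in KO lip, and 0 of 8 rose (edgeR quasi-likelihood test). At an unadjusted p under 0.05, 5 were lower and 0 higher, beside 16% and 13.5% of all genes tested. The exact test, DESeq2 and limma-voom called 0 higher. Over all genes tested, 2.09% were called lower and 4.38% higher at an adjusted p under 0.05. The KO values lay below all WT values for 5 members, Shh, Ptch1, Hhip, Gli1 and Gli2, and above them for 0, while 18.1% of all tested genes lay wholly below and 13.5% wholly above. The median log2 fold change of the 8 members was -0.59, and that of all genes tested was -0.02. The study's own kind of test, edgeR's exact test, called the same number of members, 3, where it called 7.15% of all genes lower and 7.76% higher. DESeq2 called 3 members lower, beside 7.61% of all genes lower and 9.5% higher. With limma-voom 3 members were called lower, beside 2.21% and 4.08%. In whole tissue, fewer cells of a type and less RNA per cell cannot be told apart, and this holds for each value below.

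**Figure D1:**
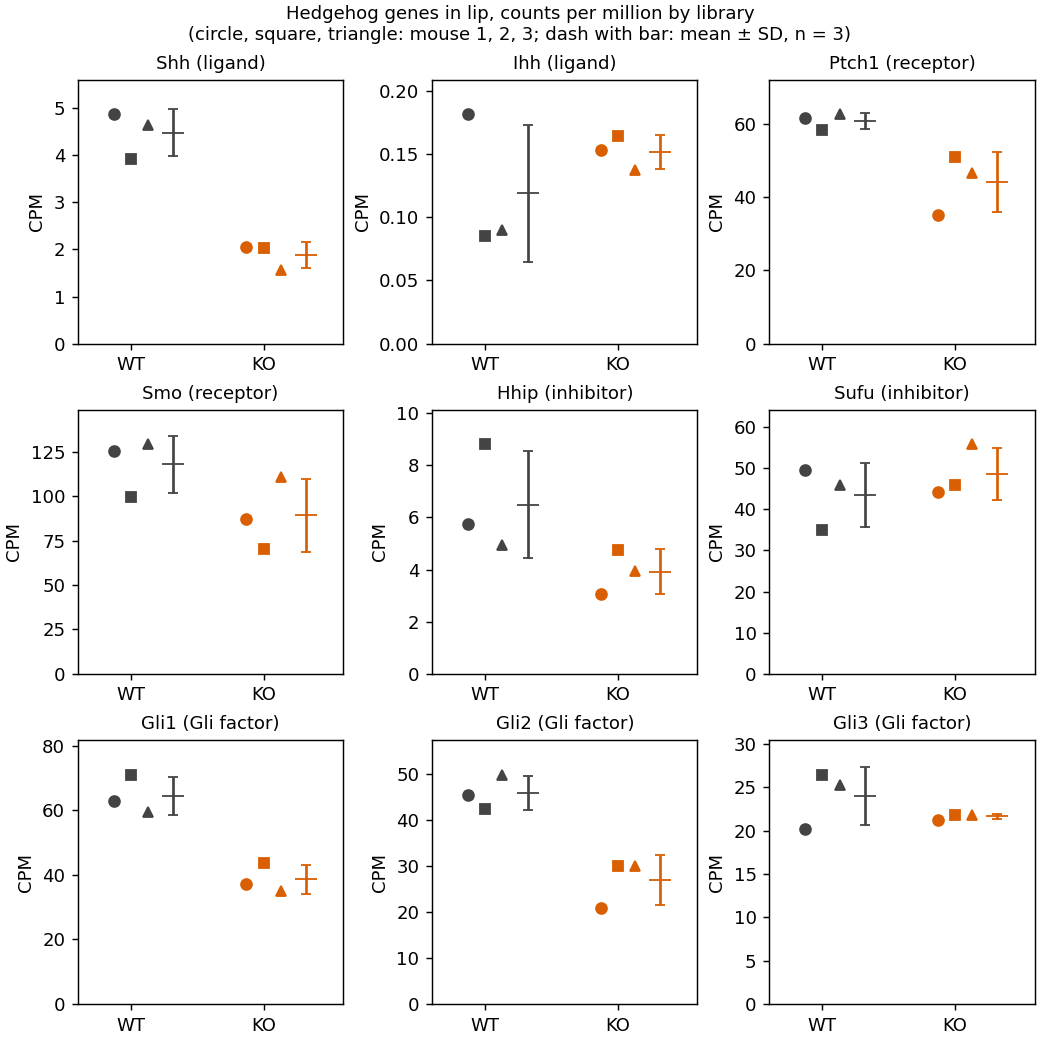
CPM of the 9 members in each library, with the vertical axis of every panel starting at 0; circles, squares and triangles are mice 1, 2 and 3 of each genotype, and the dash with its bar is the mean ± SD (n = 3). For Shh, Ptch1, Hhip, Gli1 and Gli2 every KO mouse lies below every WT mouse, while for Smo, Sufu and Gli3 the genotypes overlap and Ihh is near 0 throughout.

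Shh (chromosome 5, 28456815-28467256, minus strand, GRCm38), the ligand of the growing hair follicle, had the largest difference among the tested members. The WT libraries had 4.86, 3.91 and 4.63 CPM and the KO libraries 2.05, 2.04 and 1.55 CPM. All 3 KO mice had about the same low level, with a gap to the lowest WT mouse that exceeded the range within either genotype. The mean fell from 4.47 ± 0.497 CPM (SD, n = 3) to 1.88 ± 0.282 CPM (SD, n = 3), a log2 fold change of -1.25 (SE 0.22, 95% interval -1.74 to -0.75, adjusted p = 0.0147), or 57.8% lower. These values rest on 92 to 134 reads in WT and 34 to 62 reads in KO. Exons of Shh share 15.7% of their bases with 9530036O11Rik and 12.7% with Gm26894 on the opposite strand. Those genes held 1 to 3 and 2 to 10 counts, and the strand setting of the counting is not given in the sources used here.

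The call for Shh held under 10 of 10 other ways of testing, scaling or filtering, with adjusted p between 0.000181 and 0.0382. With 5 libraries in place of 6 it held without WT replicate 2 (adjusted p = 0.0388) and without KO replicate 3 (0.0058). The adjusted p was 0.0838 without WT replicate 1, 0.0719 without WT replicate 3, 0.0583 without KO replicate 1 and 0.0921 without KO replicate 2. The log2 fold change stayed between -1.27 and -1.12 in these 6 fits.

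Ihh (chromosome 1, 74945315-74951672, minus strand), the other ligand, was at the limit of what these libraries could count. Its counts were 5, 2 and 2 in WT and 3, 5 and 3 in KO, so it did not pass the filter on low values and was not tested. Pooled over mice these were 9 counts in WT and 11 in KO, a ratio of 1.25 with an exact 95% interval of 0.470 to 3.41 that covers counting error only. A difference of Ihh was not detectable at this depth.

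Ptch1 (chromosome 13, 63508328-63573598, minus strand) encodes the receptor that binds the ligands and is also a target of the pathway. It had 61.4, 58.2 and 62.6 CPM in WT and 35.0, 51.0 and 46.5 CPM in KO. The WT mice were close together, the KO mice were more spread, and KO replicate 1 was lowest. The means were 60.7 ± 2.26 CPM and 44.1 ± 8.24 CPM (SD, n = 3), a log2 fold change of -0.46 (SE 0.16, 95% interval -0.83 to -0.09). With an adjusted p of 0.110 this did not pass the threshold, although the genotypes did not overlap.

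Smo (chromosome 6, 29735503-29761365, plus strand) encodes Smoothened, the membrane protein that carries the signal into the cell. It had 125, 99.4 and 129 CPM in WT and 86.9, 70.1 and 111 CPM in KO. The genotypes overlapped, since KO replicate 3 was above WT replicate 2. The log2 fold change was -0.40 (SE 0.19, 95% interval -0.84 to 0.04, adjusted p = 0.202). Without KO replicate 3 it was -0.58 with an adjusted p of 0.0261, in a fit that called 16.2% of all genes lower and 16.9% higher.

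Hhip (chromosome 8, 79965851-80058006, minus strand) encodes a membrane protein that binds hedgehog ligands and limits their reach, and is itself a target gene. It had 5.73, 8.80 and 4.95 CPM in WT and 3.07, 4.77 and 3.93 CPM in KO. The genotypes were set apart only by the narrow step from WT replicate 3 to KO replicate 2. The log2 fold change of -0.72 was close to that of Gli1, but its SE was 0.27 (95% interval -1.35 to -0.09) and the adjusted p was 0.131. It was 0.0887 by the exact test.

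Sufu (chromosome 19, 46396896-46488804, plus strand), which encodes the cytoplasmic partner that restrains the Gli proteins, was the 1 tested member with a positive log2 fold change. It had 49.7, 34.9 and 45.9 CPM in WT and 44.2, 45.9 and 55.8 CPM in KO, so that the genotypes overlapped. The log2 fold change was 0.16 (SE 0.17, 95% interval -0.24 to 0.56, adjusted p = 0.555).

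Gli1 (chromosome 10, 127329882-127341974, minus strand) encodes an activator whose transcription is induced by the pathway itself. Its values were 63.0, 71.1 and 59.4 CPM in WT and 37.1, 43.7 and 35.1 CPM in KO. The highest KO mouse remained well below the lowest WT mouse. The mean fell from 64.5 ± 5.98 to 38.6 ± 4.52 CPM (SD, n = 3), a log2 fold change of -0.74 (SE 0.14, 95% interval -1.07 to -0.41, adjusted p = 0.0242), or 40.0% lower. Opposite-strand genes Arhgap9 and Gm47200 share 1.24% and 5.31% of its exon bases, and Arhgap9 itself held 114 to 207 counts against 726 to 1735 for Gli1.

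The call for Gli1 held under 10 of 10 alternatives (adjusted p 0.000551 to 0.0456). With 5 libraries it held only without KO replicate 3 (adjusted p = 0.00965). The adjusted p was 0.0933, 0.0797 and 0.0706 without WT replicates 1, 2 and 3, and 0.134 and 0.0955 without KO replicates 1 and 2, while the log2 fold change stayed between -0.80 and -0.60.

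Gli2 (chromosome 1, 118834132-119053619, minus strand) encodes the main activator that receives the signal, and its promoter is the one printed above with the capital letters. It had 45.4, 42.4 and 49.9 CPM in WT and 20.8, 30.11 and 30.04 CPM in KO. KO replicate 1 was lowest and the other two KO mice were alike, all of them below WT. The mean fell from 45.9 ± 3.79 to 27.0 ± 5.37 CPM (SD, n = 3), a log2 fold change of -0.77 (SE 0.18, 95% interval -1.17 to -0.36), or 41.2% lower. Its adjusted p of 0.0438 was near the threshold. The call held under 5 of 10 alternatives and was lost with DESeq2's size factors (0.0525), library size alone (0.0504), no filter (0.0739) and a filter of 10 counts in every library (0.0508), and in the fit with the replicate number as a term (0.0517).

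With 5 libraries Gli2 was called without KO replicate 3 (adjusted p = 0.00854). The adjusted p was 0.150, 0.0855 and 0.160 without WT replicates 1, 2 and 3, and 0.153 and 0.157 without KO replicates 1 and 2. The log2 fold change was least without KO replicate 1, at -0.55, and otherwise lay between -0.84 and -0.70.

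Gli3 (chromosome 13, 15463235-15730026, plus strand) encodes the factor that acts mostly as the repressor of the pathway. It had 20.2, 26.5 and 25.3 CPM in WT and 21.3, 21.8 and 21.9 CPM in KO. All KO values fell within the WT range and on the log2 scale were closer to each other than those of any other tested member. The log2 fold change was -0.15 (SE 0.15, 95% interval -0.50 to 0.20, adjusted p = 0.525), so a decrease as large as the central estimate of Gli1 or Gli2 lies outside its interval.

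**Figure D2:**
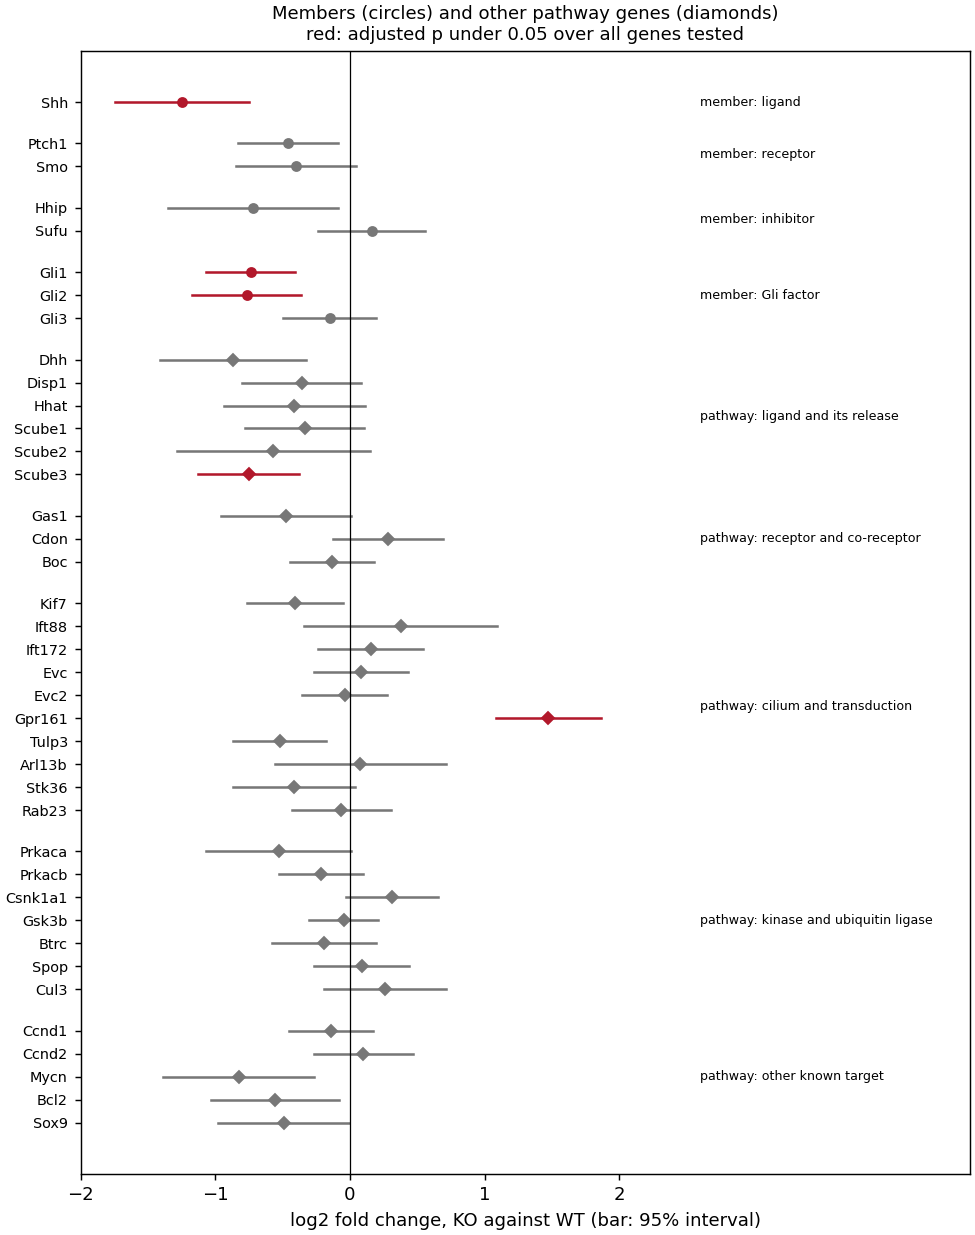
Log2 fold change of KO against WT (horizontal axis) with its 95% interval for the 8 tested members (circles) and 31 tested genes of the wider pathway (diamonds), grouped by role; red marks an adjusted p under 0.05 over all genes tested. Shh, Gli1, Gli2 and Scube3 are the red genes left of 0, and Gpr161 at 1.47 is the red gene to the right.

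To compare the Gli factors within a mouse, ratios of CPM were formed in each library on the log2 scale. The Gli1 to Gli3 ratio was 1.63, 1.42 and 1.23 in WT and 0.80, 1.002 and 0.68 in KO, a difference of -0.60. The Gli2 to Gli3 ratio was 1.16, 0.68 and 0.98 in WT and -0.03, 0.46 and 0.46 in KO, a difference of -0.64. In both ratios the genotypes did not overlap. The two-sided exact permutation p was 0.1 for each, which is the smallest that 3 against 3 can give, and 0.175 when adjusted over the 7 ratios formed, so the design could not pass the threshold for any of them. The Shh to Gli1 ratio differed by -0.48 between genotypes that overlapped (exact permutation p = 0.2, adjusted 0.28).

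**Figure D3:**
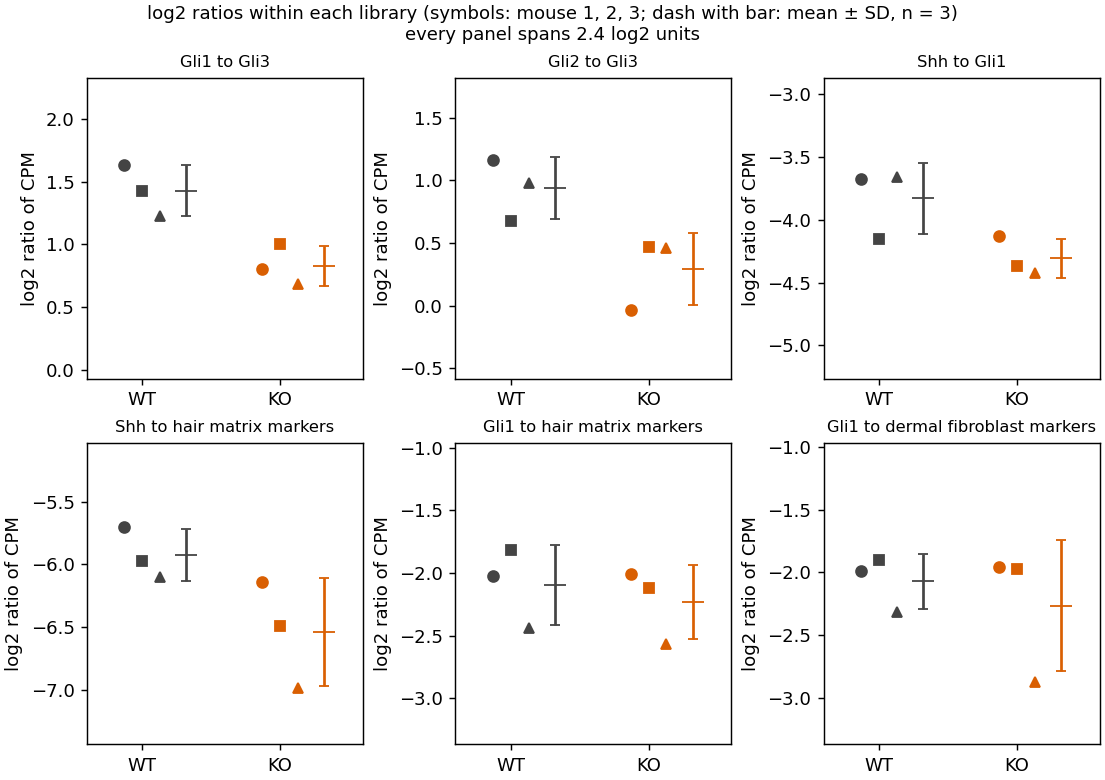
Log2 ratios of CPM within each library (vertical axis, every panel spanning the same height) by genotype; symbols are mice 1, 2 and 3 and the dash with its bar is the mean ± SD (n = 3). The ratios of Gli1 and of Gli2 to Gli3 and of Shh to hair matrix markers are lower in every KO mouse than in any WT mouse, whereas the ratios of Gli1 to hair matrix and to dermal fibroblast markers overlap.

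Levels of different genes were compared per kilobase of annotated exon. In WT lip the order was Smo with 21.0 CPM per kb, Gli1 with 12.9, Gli2 with 6.68, Sufu with 5.65, Ptch1 with 4.28, Gli3 with 2.505, Shh with 1.57, Hhip with 0.715 and Ihh with 0.039. Gli2 and Sufu were the only neighbours in this order whose WT values overlapped. In KO lip the level of Gli1 was 7.74 CPM per kb, and Sufu with 6.32 stood before Gli2 with 3.93. There the values of Gli1 and Sufu overlapped, as did those of Gli2 and Ptch1, and Smo remained first at 15.9 CPM per kb. The annotated exons of Ptch1 add up to 14185 bases, more than for any other member, so that its level per length depends on which transcripts are used.

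**Figure D4:**
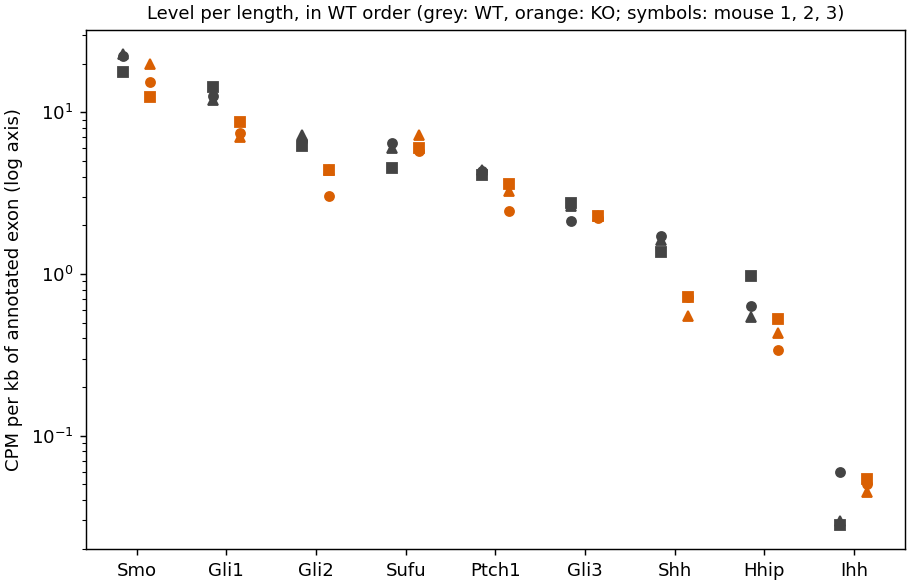
CPM per kilobase of annotated exon (log axis) of the 9 members in WT order, grey for WT and orange for KO, with a symbol for each mouse. Levels run from Smo at 21.0 to Ihh at 0.039 CPM per kb in WT, and the KO points of Gli1 and Gli2 come down to those of Sufu and Ptch1.

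Among 34 other genes of the pathway, 31 were tested, and Lrp2, Foxf1 and Foxf2 were too low. Of the 31, 1 fell and 1 rose, beside the 2.09% and 4.38% of all genes. Their median log2 fold change was -0.19, with 21 values below 0 and 10 above, beside 7801 below and 7208 above among all genes tested. KO values lay wholly below WT for 8 of them and wholly above for 2, beside 18.1% and 13.5% of all genes.

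In the group of ligand and ligand release genes, 1 of 6 fell, beside 2.09% of all genes. This was Scube3, which encodes a secreted protein of a family that helps to release lipid-modified ligand. It went from 19.5 ± 1.98 CPM in WT to 11.6 ± 1.39 CPM in KO (SD, n = 3), a log2 fold change of -0.75 (SE 0.16, adjusted p = 0.0364). All 6 log2 fold changes of this group were negative, -0.34 for Scube1, -0.36 for the transporter-like releaser Disp1, -0.41 for the palmitoyl transferase Hhat, -0.57 for Scube2 and -0.87 for Dhh. Dhh, the ligand known from Schwann cells, had 2.94, 3.996 and 3.01 CPM in WT and 1.996, 1.51 and 1.97 CPM in KO (adjusted p = 0.0681, and 0.0365 by the exact test). Rhebl1 on the same strand shares 12.4% of its exon bases and Gm49442 on the opposite strand 25.2%.

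Of the 3 tested co-receptor genes, 0 passed the quasi-likelihood test, 0 had an unadjusted p under 0.05, and 0 were called by the exact test, DESeq2 or limma-voom. Gas1, Boc and Cdon, whose products help to present ligand to Patched, had log2 fold changes of -0.47 (adjusted p = 0.174), -0.13 (0.526) and 0.28 (0.312).

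Of 10 genes for the cilium and for signal transduction, 0 fell and 1 rose by the quasi-likelihood test, beside 2.09% and 4.38% of all genes. At an unadjusted p under 0.05, 2 were lower, beside 16% of all genes, and the exact test, DESeq2 and limma-voom called 0, 1 and 0 lower. Gpr161 encodes a ciliary receptor that restrains hedgehog signalling through protein kinase A. It had 8.42, 10.8 and 7.96 CPM in WT and 25.02, 26.5 and 24.1 CPM in KO. The lowest KO mouse had more than any WT mouse by a margin far beyond the spread within genotypes, with a log2 fold change of 1.47 (SE 0.17, adjusted p = 0.00183). This call held in 10 of 10 alternatives and in 6 of 6 fits with a library left out. Tulp3, which carries Gpr161 and other receptors into the cilium, had a log2 fold change of -0.52 (adjusted p = 0.0755), and the cilium kinesin gene Kif7 had -0.41 (0.128). The values for Ift88, Ift172, Evc, Evc2, Arl13b, Stk36 and Rab23 lay between -0.42 and 0.38.

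Of the 7 kinase and ubiquitin ligase genes that process Gli proteins, 0 passed edgeR's quasi-likelihood test, 0 had an unadjusted p under 0.05, and 0 were called by the exact test, DESeq2 or limma-voom, with log2 fold changes from -0.53 for Prkaca (adjusted p = 0.174), a catalytic subunit of protein kinase A, to 0.31 for the casein kinase gene Csnk1a1 (0.197). Of the 5 tested genes known as other targets, 0 passed the quasi-likelihood test. At an unadjusted p under 0.05, 3 were lower, beside 16% of all genes, and the exact test, DESeq2 and limma-voom called 1, 1 and 0 lower. Mycn, a growth regulator, was at -0.83 (adjusted p = 0.0793, and 0.0208 by the exact test). The survival gene Bcl2 was at -0.56 (0.124), the stem cell factor gene Sox9 at -0.49 (0.166), and the cyclin genes Ccnd1 and Ccnd2 at -0.14 (0.506) and 0.10 (0.705).

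The call of Scube3 depended on the fit. It held under 8 of 10 alternatives, and with a library left out only without KO replicate 3 (adjusted p = 0.0129). The adjusted p reached 0.173 in the other left-out fits.

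Summed markers of some cell types were also lower in KO, while those of others overlapped or were higher. The 12 hair matrix and inner root sheath markers, for the cells next to or producing Shh, summed to between 8321 and 10561 CPM in WT and between 5663 and 7185 CPM in KO. All 12 log2 fold changes were negative, and the summed levels did not overlap. Negative values were not particular to this list, and 7801 of the 15009 genes tested had one. All 6 follicle stem cell, 8 sebaceous gland, 7 Schwann cell and 8 skeletal muscle markers were negative too. So were 9 of 10 fibroblast, 5 of 6 tested dermal papilla, 2 of 2 tested cartilage and bone and 3 of 6 basal keratinocyte markers. The quasi-likelihood test called 2 lower (2.09% of all genes), and the exact test, DESeq2 and limma-voom called 3, 5 and 2. At an unadjusted p under 0.05, 10 were lower (16% of all genes). The 6 follicle stem cell markers summed to 1392 to 1545 CPM in WT and 960 to 1201 CPM in KO, also without overlap. Of these, 0 were called by the quasi-likelihood test, 5 were lower at an unadjusted p under 0.05 (16% of all genes), and the exact test, DESeq2 and limma-voom called 3, 3 and 0 lower. The 10 dermal fibroblast markers overlapped, at 7016 to 9110 CPM in WT and 3094 to 7313 CPM in KO. The sum of the 8 sebaceous gland markers overlapped too, at 4383 to 5563 CPM and 2748 to 4709 CPM. Most of this sum was Scd1, with a mean of 3701 CPM in WT and 2783 CPM in KO. The quasi-likelihood test called 1 sebaceous marker lower (2.09% of all genes), Awat1, with a log2 fold change of -1.09 (adjusted p = 0.00409). The exact test, DESeq2 and limma-voom called 1, 2 and 1 lower. At an unadjusted p under 0.05, 5 sebaceous markers were lower (16% of all genes). Of the fibroblast markers, 0 were called by the quasi-likelihood test, the exact test, DESeq2 or limma-voom, and 3 were lower at an unadjusted p under 0.05 (16% of all genes). The 7 dermal papilla markers had low sums throughout, at 68.7 to 98.2 CPM and 68.8 to 70.2 CPM, with Rspo2 at 3 counts or fewer in every library. Of the 6 tested, 0 were called by the quasi-likelihood test and 1 was lower at an unadjusted p under 0.05 (16% of all genes). This was Alx4, with a log2 fold change of -0.91 and no overlap (adjusted p = 0.0560, and 0.00572 by the exact test). DESeq2 and limma-voom each called 1 lower.

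Other lists differed as well. The 7 Schwann cell markers summed to 537 to 559 CPM in WT and 269 to 475 CPM in KO, without overlap. By the quasi-likelihood test 0 were called, 5 were lower at an unadjusted p under 0.05 (16% of all genes), and the exact test, DESeq2 and limma-voom called 2, 2 and 0 lower. The 8 skeletal muscle markers summed to 11563 to 14701 CPM in WT and 5696 to 8958 CPM in KO. The quasi-likelihood test called 3 lower (2.09% of all genes), and the exact test, DESeq2 and limma-voom called 6, 6 and 3. At an unadjusted p under 0.05, 8 were lower (16% of all genes). The 4 listed cartilage and bone markers were at 16.7 to 21.9 CPM and 7.93 to 15.7 CPM. The 6 suprabasal keratinocyte markers summed to 27647 to 41547 CPM in KO, above the 17074 to 21335 CPM in WT. Log2 fold changes were positive for 4 of them and negative for 2, Lor at -0.32 and Flg2 at -0.17. The quasi-likelihood test called 1 higher (4.38% of all genes), and the exact test, DESeq2 and limma-voom called 3, 3 and 2. At an unadjusted p under 0.05, 3 were higher (13.5% of all genes). The 6 basal keratinocyte markers overlapped, at 9733 to 10882 CPM in WT and 9457 to 11219 CPM in KO. None of the listed markers was at 0 in every library, and keratinocyte and hair markers were abundant in each, as the label of lip tissue has it. The part that cell composition has in the hedgehog values was not tested.

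Set against the mean log2 level of the hair matrix markers in the same library, Shh had a log2 ratio of -5.70, -5.98 and -6.10 in WT and -6.14, -6.49 and -6.99 in KO. The genotypes did not overlap, though only by the step from WT replicate 3 to KO replicate 1, and differed by -0.61 (exact permutation p = 0.1, adjusted 0.175). For Gli1 the ratio to the same markers differed by -0.14 (exact permutation p = 0.6) and the ratio to the dermal fibroblast markers by -0.20 (exact permutation p = 0.7), with overlap in both and an adjusted p of 0.7 for each. The 7th ratio, of Ihh to sebaceous gland markers, rests on 2 to 5 counts of Ihh and is not read here.

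**Figure D5:**
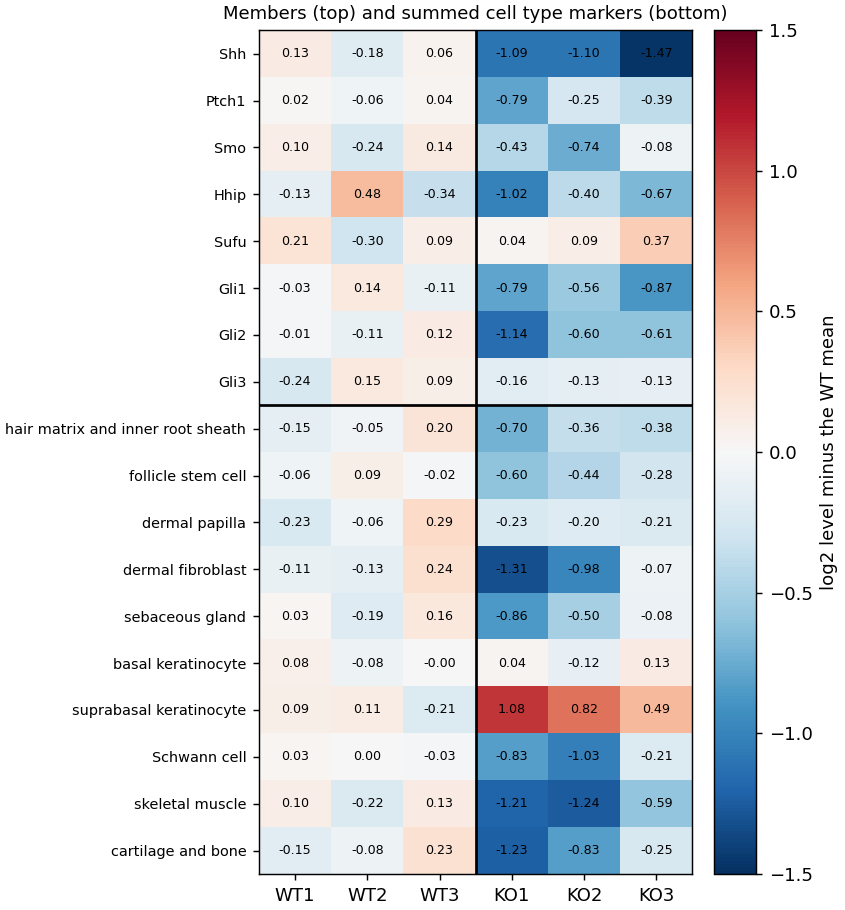
Log2 level of each tested member (top) and of the summed markers of each cell type (bottom) minus the WT mean, for the 6 libraries; blue is lower and red is higher. Shh lies between -1.09 and -1.47 in the KO libraries and Gli3 between -0.13 and -0.16, while the dermal fibroblast sum goes from -1.31 in KO replicate 1 to -0.07 in KO replicate 3.

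The KO mice differed in how far the members moved. Relative to the WT mean, the median over the 8 tested members was -0.79 on the log2 scale in KO replicate 1, -0.48 in KO replicate 2 and -0.50 in KO replicate 3. KO replicate 1 held the lowest value of all libraries for 3 members, Ptch1, Hhip and Gli2, and KO replicate 3 for 2, Shh and Gli1. KO replicate 2 was lowest for Smo. KO replicate 3, whose summed fibroblast markers were in the WT range, thus had the lowest Shh and Gli1 of the 6 libraries and the Smo value nearest to WT. Its Dpt, Dcn and Pi16 were below every WT library and its Fbln1 was above, so that sum does not stand for each marker.

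The genes most like Shh over the 6 libraries, by Pearson correlation of log2 CPM, were Fbxo32 (0.997), U2af1l4 (0.994), Fabp4 (0.991), Tmem220 (0.991) and Lrrc56 (0.990). Those most like Gli1 were Pag1 (0.996), Tbc1d30 (0.995), Rhobtb3 (0.993), Slc8a2 (0.993) and 6330403K07Rik (0.991). These are descriptions of 6 points that fall into 2 genotypes and were picked as the highest of 15009. A value over 0.95 was reached by 102 genes for Shh and by 104 for Gli1.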

How the data were processed

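RNA-Seq was performed on top lip from 3 KO and 3 WT mice. Reads were aligned by the authors to the GRCm38 genome (TopHat2 2.0.8, Bowtie2 2.1.0, as named in the submitters' processing notes). The deposited values are whole-number counts per gene from HTSeq, not normalized. The version of HTSeq and the strand setting are not given in the sources used here. A gene was tested where 3 or more libraries reached 1 CPM. Genotypes were compared in R 4.3.3 with edgeR 4.0.16 (TMM, glmQLFit with legacy=FALSE, glmQLFTest). P-values were adjusted by the Benjamini-Hochberg method over all 15009 genes, with a threshold of 0.05. Ratios used log2 CPM with a prior count of 2 and exact permutation tests in scipy 1.17.1. The procedure was tested on simulated data.

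Alternatives were edgeR's exact test, DESeq2 1.42.0, limma-voom (limma 3.58.1), the older quasi-likelihood fit, 3 other scalings, 2 other filters, a replicate block, a threshold of 0.1 and leaving out each library. Exon lengths were those of GENCODE M21 (GRCm38). The members, gene lists and markers were chosen with earlier results of these data known. Named genes were the members, the targeted gene, the pathway list, genes overlapping a member and the 5 genes most correlated with Shh and with Gli1. One gene of the pathway list is not reported here, and the counts over that list leave it out. Replicates differed by more than sampling noise. The labels number the replicates, and that each library is 1 mouse is taken from the study's methods.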

Additional observations from a re-analysis of the deposited data

How the results depend on the processing

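Of 88 values of single members under the alternatives other than left-out libraries, 83 kept their direction and side of the threshold and 5, all of Gli2, lost the call. Of 48 with a library left out, 33 kept both, 14 lost the call and 1, of Smo, gained it. None changed direction. The number of members called lower was 3 and ranged from 0 to 4 with a library left out, being 4 without KO replicate 3, 1 without WT replicate 2 and 0 otherwise. The number of other pathway genes called lower was 1, and was 3 with the exact test, 4 with DESeq2, 0 with no filter and 4 at an adjusted p under 0.1, where no filter adds genes to the adjustment. It ranged from 0 to 8 with a library left out, and the number called higher from 1 to 2, the most in each case without KO replicate 3. Over all genes, that fit called 2395 lower and 2496 higher, against 314 and 657 with all libraries. Every other left-out fit called between 18 and 62 genes lower and between 208 and 476 higher. The counts of members and pathway genes thus moved with those of all genes. The median log2 fold change of the members stayed between -0.65 and -0.42. With a library left out, 1 genotype is represented by 2 mice.

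The replicate numbers are shared by the genotypes, and the deviations of same-numbered mice correlated at -0.19, 0.29 and 0.31. Correlations of differently numbered mice were not formed, so these values cannot decide whether the numbers are pairs. The main fit did not take them as pairs. With a replicate block, 2 members and 0 other pathway genes were called lower, and 217 genes were called lower and 580 higher in all, against 314 and 657. Over all genes the exact test called 1073 lower and 1165 higher and DESeq2 1142 and 1426.

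Depth limits Ihh, with 2 to 5 counts in a library, and leaves Shh with 34 to 134.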
